A study of Mus musculus with 14 samples.

Results

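The 4 mouse Hox clusters were examined in MBD-seq peak lists of 14 cell samples. The 38 Hox genes considered, of 37129 annotated genes, were 10 genes of HoxA, 10 of HoxB, 9 of HoxC and 9 of HoxD. A peak belonged to the clusters when it overlapped one of these genes with 2 kb on each side, or an interval between neighbouring genes of the same cluster. On NCBI build 37 (mm9) the HoxA window was chr6:52110350-52212874, the HoxB window chr11:96053630-96231570, the HoxC window chr15:102749534-102869274 and the HoxD window chr2:74504367-74605200. Together they span 501.0 kb and held 330 of the 1063163 peaks of the series, which merged into 97 regions. Regions were numbered along the chromosome within each cluster, so that HoxA-3 is a region of the HoxA window.

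In MBD-seq, sheared DNA is captured by a protein domain that binds methylated CpGs, and a peak marks a place where sequenced tags of captured DNA pile up. Clones of induced pluripotent stem (iPS) cells were compared by genotype, with 4 Aid+/+ and 4 Aid-/- clones, and set beside 3 lines of embryonic stem (ES) cells and 3 samples of mouse embryonic fibroblasts (MEFs) of Aid+/+ genotype, the kind of cell reprogrammed to iPS cells. Aid is a cytidine deaminase best known from antibody diversification in B cells, and Aid-/- clones came from mice without it. The iPS clones of both genotypes were at passage 6, grown on gelatin, and the MEFs were at passage 3. All of these carried a Nanog-GFP reporter on a mixed C57BL6, DBA and 129S4 background. Each iPS sample is a single clone. Aid+/+ iPS 1 and 2 came from clone series 967, Aid+/+ iPS 3 and 4 and Aid-/- iPS 1 and 2 from series 979, and Aid-/- iPS 3 and 4 from a further series. The ES lines were RF8 (ES 1, strain 129SV, passage 19), MG1.19 (ES 2, strain 129Ola) and B6 ES (ES 3, C57BL6), so that strain differed among them and between them and the other cells. The study's methods derive MEFs from individual embryos, but the labels tie no MEF sample to an embryo, and p-values measure the spread between these samples, which may in part be technical.

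Hox genes encode homeodomain transcription factors that set positional identity along the body axis. Within a cluster the genes lie in the order of their expression domains, from anterior paralogs to posterior ones. In pluripotent cells the clusters are classically held silent by Polycomb proteins, and fibroblasts keep a Hox expression pattern that reflects the place in the embryo they came from.

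The sequences shown first stand for the regions on which the comparisons turn. Each is the 30 bases with the most CpGs in the region outside annotated untranslated sequence (UTR), on the plus strand, in lower case with each CpG in capitals. The first 6 had a peak in all MEFs and in few or none of the other samples (4 of them at HoxD-17), and the last 3 had peaks in at least 7 of the 8 iPS clones.
HoxA-3 (start of Hoxa2), chr6:52115754-52115783: CGggcagCGgaaaaCGagaggCGgctctCG
HoxB-14 (upstream of Hoxb8), chr11:96141126-96141155: caggtgagagctgCGgcttcctCGggCGCG
HoxB-27 (intron of Hoxb3), chr11:96187088-96187117: CGtgttctttCGcctagtctcacCGCGgCG
HoxC-11 (start of Hoxc10), chr15:102797298-102797327: cctCGcaatgtaactcCGaactCGtaCGCG
HoxD-13 (start of Hoxd4), chr2:74565769-74565798: agtgggggcagCGacctcacagccctccCG
HoxD-17 (exon of Hoxd3), chr2:74584481-74584510: tcaacCGctatctgtgcCGgcCGCGcCGCG
HoxA-14 (start of Hoxa7), chr6:52170110-52170139: ggaCGCGgccaccaattcctaccCGaagCG
HoxC-8 (upstream of Hoxc11), chr15:102780953-102780982: gCGgcacCGgccaacCGggcctcCGctcCG
HoxC-20 (intron of Hoxc4), chr15:102856838-102856867: CGcctgctCGcagcagcCGagctcttatCG

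Some facts of the series touch every value below. Libraries held 20.1 to 36.9 M total tags (M, mega), of which 6.65 to 19.6 M remained after the filter on duplicates, and 33694 to 110943 peaks were called per sample. The samples were divided into 4 sets by the start of the name and the version of the peak caller in the file headers. These sets are called processing runs here. No label states what the names mean, so run cannot be told apart from clone or culture. Run A held Aid+/+ iPS 1 and Aid-/- iPS 1, 2 and 4, run B held Aid+/+ iPS 2, 3 and 4, run C held Aid-/- iPS 3, the ES lines and MEF 1, and run D held MEF 2 and 3. No run held Aid+/+ iPS clones together with MEFs or ES lines, so run and cell type cannot be told apart in those comparisons. As a check of the labels, a peak at Nanog, a pluripotency gene, was present in 2 of 3 MEFs and in no iPS clone or ES line. Of the 6 pluripotency markers 1 had a longer covered length in every MEF than in every Aid+/+ iPS clone (Zfp42) and 1 a shorter one (Pou5f1), and of the 6 fibroblast markers 2 had a shorter one (Col1a1 and Prrx1). Over all genes tested 5.1% were longer and 28.4% shorter, so these counts give no check of the labels.

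The first question was how much of the Hox clusters was methylated in each cell type. MEFs carried 45, 39 and 34 peaks in the windows, covering 32.5, 31.9 and 24.8 kb. Aid+/+ iPS 1 to 4 carried 38, 8, 9 and 10 peaks, covering 20.8, 5.25, 5.98 and 7.48 kb. The lowest MEF was thus above the highest Aid+/+ iPS clone in covered length, but not in number of peaks. A partial signal in such bulk samples cannot tell methylation of some of the cells or alleles from a lower density of methylated CpGs in all of them.

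Aid-/- iPS 1 to 4 carried 31, 24, 12 and 38 peaks, covering 18.9, 12.4, 8.07 and 29.6 kb. ES 1, 2 and 3 carried 7, 2 and 33 peaks, covering 3.82, 1.185 and 24.7 kb. Both groups spread widely. Aid-/- iPS 4 lay within the range of the MEFs on both measures, and ES 3 lay just below the lowest MEF. Within run C, MEF 1 had 32.5 kb covered, against 1.185 to 24.7 kb in the ES lines and 8.07 kb in Aid-/- iPS 3.

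**Figure D1:**
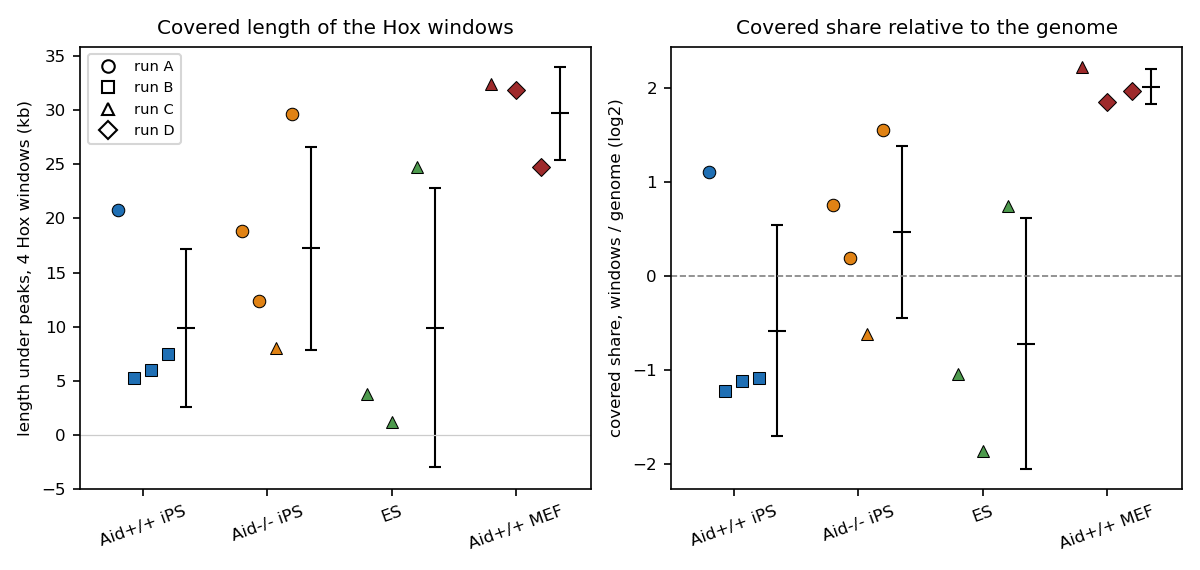
Covered length of the 4 Hox windows in kb (left) and log2 of the covered share of the windows over that of the genome (right) for each sample, by group, with symbols for the processing run and bars for mean ± SD. The 3 MEFs lie at 24.8 to 32.5 kb and near 2 on the log2 scale, and the iPS clones of run A lie above the other iPS clones.

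The samples differ in how much of the genome they cover, and the covered share of the windows was therefore also taken relative to that of the genome. On this log2 scale the MEFs had 2.22, 1.85 and 1.97, and Aid+/+ iPS 1 to 4 had 1.10, -1.22, -1.12 and -1.09. Aid-/- iPS 1 to 4 had 0.75, 0.19, -0.62 and 1.55, and ES 1, 2 and 3 had -1.04, -1.86 and 0.74. The Hox windows were covered more than the genome in all 3 MEFs and less than the genome in 3 of 4 Aid+/+ iPS clones, 1 of 4 Aid-/- clones and 2 of 3 ES lines. Over all 14 samples the mean was 0.24 ± 1.39 (SD), with p = 0.513 in an exact two-sided sign-flip permutation test.

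MEFs against Aid+/+ iPS clones gave the largest difference. Covered length was 29.7 ± 4.28 kb in MEFs (SD, n = 3) and 9.87 ± 7.33 kb in Aid+/+ iPS clones (SD, n = 4), with p = 0.0571 in an exact two-sided permutation test and 0.214 after Benjamini-Hochberg (BH) adjustment over 15 tests. The smallest p this design allows is 0.0286. The difference relative to the genome was 2.60 on the log2 scale, again with an exact permutation p of 0.0571 and a BH-adjusted p of 0.214. It thus did not pass the threshold of 0.05. Both exact p-values, not adjusted, reached 0.0286 when peaks were kept at a p-value of at most 1e-10 (differences of 15.2 kb and 3.18) or when the same number of peaks was kept in every sample (19.1 kb and 4.11).

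Among the clusters HoxA gave the largest difference in covered length. In HoxA, MEFs had 9.32, 10.49 and 7.18 kb covered and Aid+/+ iPS 1 to 4 had 4.51, 0.807, 1.12 and 2.54 kb, a difference of 6.75 kb with no overlap of the groups (exact permutation p = 0.0286, BH-adjusted p = 0.214). In HoxD the difference was 5.77 kb, in HoxB 5.28 kb and in HoxC 2.04 kb, with exact permutation p-values of 0.0571, 0.0571 and 0.114. Leaving out any sample lifts the HoxA p-value to 0.0667 or 0.1, since fewer splits remain.

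By contrast, the genotype of the iPS clones and the ES lines gave no difference beyond the spread between samples. Aid-/- clones had 17.2 ± 9.37 kb covered (SD, n = 4), 7.36 kb more than Aid+/+ clones, with p = 0.229 in the exact permutation test. The difference was 3.23 kb without Aid-/- iPS 4, 11 kb without Aid+/+ iPS 1 and 0.746 kb with the same number of peaks in every sample. This direction turned within run A, where the mean of the 3 Aid-/- clones differed from the Aid+/+ clone by -0.485 kb. ES lines had 9.91 ± 12.9 kb covered (SD, n = 3), with an exact permutation p of 1.0 against Aid+/+ iPS clones. Relative to the genome the log2 differences were 1.05 (p = 0.2) and -0.14 (p = 0.886) in exact permutation tests.

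The iPS clones also fell apart by processing run. The 4 iPS clones of run A had 24 to 38 peaks and 12.4 to 29.6 kb covered, and the other 4 had 8 to 12 peaks and 5.25 to 8.07 kb. Total tags (24.95 to 28.4 M in run A, 31.3 to 36.9 M in the others) and the covered share of the genome (1.93 to 2.23% against 2.44 to 3.18%) separated the same clones, both lower in run A. Filtered tags overlapped, at 9.89 to 15.9 M and 6.65 to 12.8 M. Of the 63 regions with an iPS peak, 47 had iPS peaks of run A clones only, with a median GC content of 58.0% against 55.3% over all 97 regions, and 3 had iPS peaks of the other clones only. The part of the run and of depth in these values was not tested. The matching count over the genome is not given here, so the 47 are no result about Hox clusters.

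**Figure D2:**
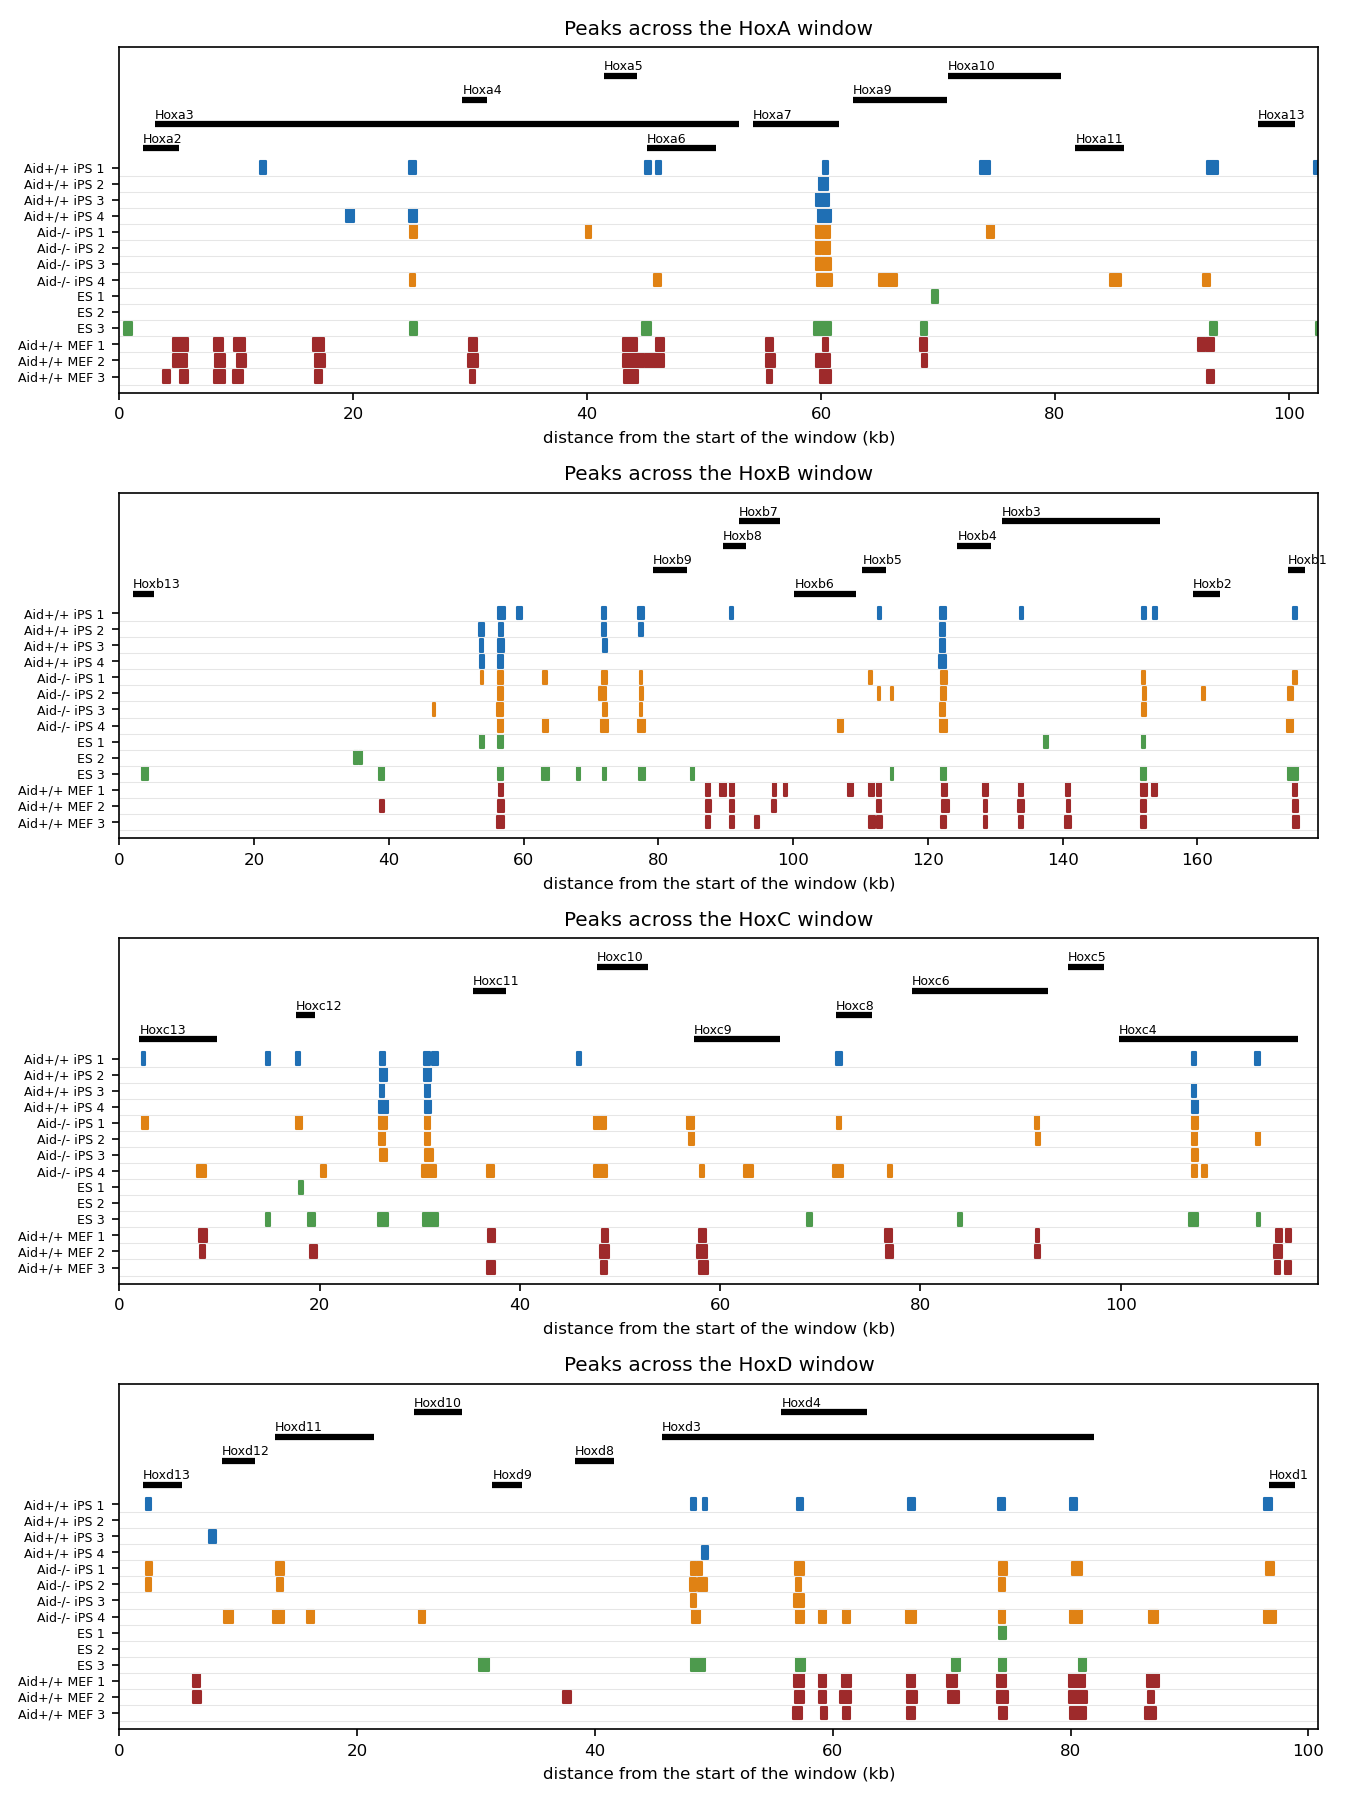
Peaks of the 14 samples (coloured bars) along each Hox window, with the Hox genes above in black and the distance from the start of the window in kb on the x axis. In HoxA the MEF peaks crowd the stretch from Hoxa2 to Hoxa7, and no MEF peak overlaps Hoxa11 or Hoxa13.

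Hox clusters are rich in CpG islands, and coverage was split by base composition. CpG-dense tiles (500 bp with GC content of at least 55% and an observed to expected CpG ratio of at least 0.65) made up 8.28% of the tiles of the windows and 0.443% of those of the genome. Peaks covered 18.2, 14.4 and 14.6% of the length of the CpG-dense Hox tiles in the MEFs. In Aid+/+ iPS 1 to 4 the share was 14.8, 0.318, 0.559 and 0.860%, and in Aid-/- iPS 1 to 4 it was 13.1, 5.02, 0.439 and 19.1%.

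In ES 1, 2 and 3 peaks covered 1.2, 0 and 2.87% of the CpG-dense Hox tiles. At most 2.87% of the CpG-dense Hox DNA was thus under peaks in the ES lines, and at most 0.860% in the iPS clones outside run A. In these same 4 iPS clones peaks covered 6.93 to 7.88% of the CpG-dense tiles of the genome and in those of run A 12.1 to 19.2%, whereas the MEFs covered 11.99 to 12.19% there. The difference between MEFs and Aid+/+ iPS clones was 11.6 percentage points, with an exact permutation p of 0.114 and a BH-adjusted p of 0.343. Between genotypes it was 5.29 points (p = 0.343) and between ES lines and Aid+/+ iPS clones -2.79 points (p = 0.886) in exact permutation tests.

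**Figure D3:**
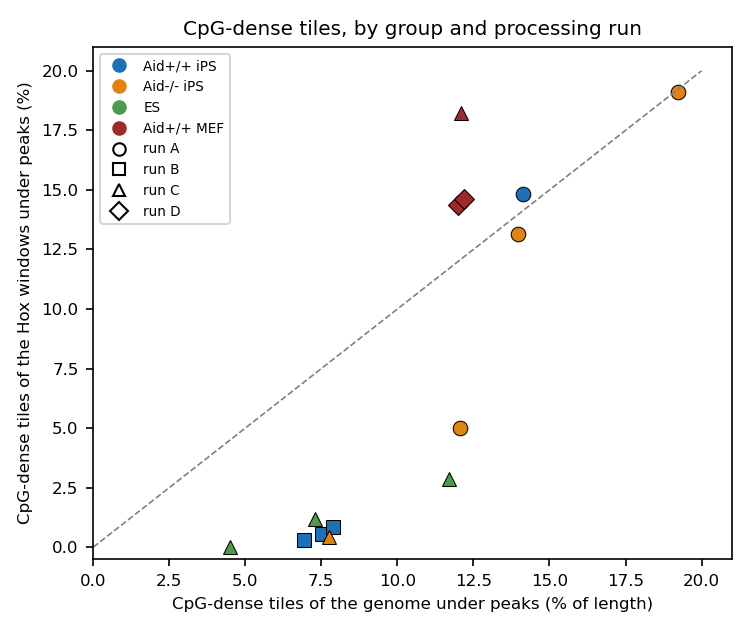
Share of CpG-dense tile length under peaks in the genome (x axis, %) and in the Hox windows (y axis, %), 1 point per sample coloured by group with a symbol for the run, and a dashed line where both are equal. The MEFs lie above the line, and the iPS clones outside run A and the ES lines lie far below it.

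At the level of single genes, covered length was taken over the gene with its flanks, and a gene was called where every sample of one group exceeded every sample of the other. Of 31 Hox genes with a peak in MEFs or Aid+/+ iPS clones, 14 were higher in MEFs, against 5.1% of all genes tested in the same way, and 0 were lower, against 28.4%. The 14 were 4 of the 7 anterior genes (paralogs 1 to 3), 8 of the 15 central genes (4 to 8) and 2 of the 16 posterior genes (9 to 13). HoxA and HoxB held 5 each and HoxC and HoxD held 2 each. All 14 also exceeded every ES line, and 10 exceeded every Aid-/- iPS clone as well.

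The anterior genes pattern the hindbrain and the pharyngeal region. Hoxa2 had 1.23, 1.25 and 1.25 kb covered in the MEFs, none in any iPS clone, and 0.701 kb in ES 3 as the sole ES line. Hoxa3 had 6.47, 8.08 and 5.21 kb in the MEFs against 1.99, 0, 0 and 1.401 kb in Aid+/+ iPS 1 to 4 and at most 1.08 kb in Aid-/- clones. Its annotated model is long and overlaps Hoxa2, Hoxa4, Hoxa5 and Hoxa6, so that these 5 genes share sequence and are not separate observations.

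Hoxb3 had 2.83, 1.99 and 2.26 kb in the MEFs, against 1.61, 0, 0 and 0 kb in Aid+/+ iPS 1 to 4. Hoxd3 had 5.85, 6.43 and 4.57 kb in the MEFs, against 3.04, 0, 0 and 0.514 kb in Aid+/+ iPS 1 to 4 and 3.07, 2.24, 1.22 and 4.87 kb in Aid-/- iPS 1 to 4. The MEFs thus lay above both for Hoxb3, while Aid-/- iPS 4 overlapped the MEFs at Hoxd3. The remaining anterior genes were not called: Hoxb1 had 0.634 to 0.863 kb in MEFs and 0.686 kb in Aid+/+ iPS 1, and Hoxb2 and Hoxd1 had no MEF peak.

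The central genes specify thoracic and cervical levels of the trunk. Hoxa4 had 0.699, 0.860 and 0.391 kb in the MEFs and no peak in any of the other 11 samples. Hoxa5, needed for lung and neck skeleton, had 1.57, 3.16 and 1.18 kb in the MEFs against 0.928, 0, 0 and 0 kb in Aid+/+ iPS 1 to 4. Hoxa4 was thus covered in MEFs alone, and the lowest MEF value of Hoxa5 lay above all other samples.

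Hoxb4, a regulator of blood stem cells, was covered in every iPS clone, at 0.326, 0.135, 0.235 and 0.360 kb in Aid+/+ iPS 1 to 4 and 0.185 to 0.423 kb in Aid-/- clones, and at 1.17, 1.22 and 0.750 kb in the MEFs. Hoxb7 and Hoxb8 had 1.12 to 1.72 and 0.763 to 1.76 kb in MEFs, and among the other samples a peak in Aid+/+ iPS 1 alone, at 0.439 kb. Their annotated models overlap and that peak is the same in both, so they are not separate observations. Hoxa6, Hoxb5 and Hoxd4 completed the called central genes, with 1.18 to 3.49, 0.561 to 1.90 and 1.81 to 2.31 kb in MEFs and at most 0.982, 0.445 and 0.536 kb in Aid+/+ iPS clones. Hoxd4 lies within the annotated model of Hoxd3, and the 2 genes share sequence.

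The posterior genes pattern the posterior trunk and the limbs, and few of them followed the MEFs. Hoxc9 had 0.690, 1.03 and 0.881 kb in the MEFs and no peak in Aid+/+ iPS clones, and Hoxc10 had 0.661, 0.890 and 0.664 kb against 0.418, 0, 0 and 0 kb in Aid+/+ iPS 1 to 4. Both were also covered in Aid-/- iPS 1 and 4, at 0.714 and 1.36 kb for Hoxc9 and 1.09 and 1.32 kb for Hoxc10. Hoxc9 was covered in Aid-/- iPS 2 too, at 0.489 kb. Several posterior genes had peaks only outside MEFs. Hoxd11 had 0.683, 0.508, 0 and 1.48 kb in Aid-/- iPS 1 to 4 and none elsewhere. Hoxb9 was covered in all 4 Aid-/- clones, in Aid+/+ iPS 1 and 2 and in ES 3, at 0.408 to 1.36 kb, and in no MEF.

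For each class the genes with their flanks were pooled, and the covered share of their merged length was taken. The share of the anterior genes was 10.7 ± 1.55% in MEFs and 1.72 ± 2.62% in Aid+/+ iPS clones (SD over samples). That of the central genes was 9.23 ± 2.09% and 1.75 ± 1.21%, and that of the posterior genes 2.65 ± 0.736% and 0.904 ± 1.24%. The anterior genes Hoxa3 and Hoxd3 overlap central genes, so the anterior and central shares count some of the same sequence. The posterior share was 3.55 ± 3.56% in Aid-/- clones and 1.44 ± 1.87% in ES lines, so the MEFs did not stand apart there. Hoxc5 had no peak in any sample, and Hoxa11, Hoxb13, Hoxb2, Hoxd9 and Hoxd8 had one in a single sample. A peak was present in every sample for 18 genes in the MEFs, 6 in the Aid-/- clones, 2 in the Aid+/+ clones (Hoxa7 and Hoxb4) and 0 in the ES lines.

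Between genotypes no Hox gene was called, with 0 of 32 higher in Aid-/- clones against 0.432% of all genes and 0 lower against 1.53%. ES lines against Aid+/+ iPS clones gave 0 of 29 higher, against 0.187% of all genes, and 0 lower, against 3.6%. Without Aid+/+ iPS 1, or without Aid-/- iPS 3, 3 genes were higher in Aid-/- clones, and without Aid-/- iPS 2 there were 2. With fewer clones a lack of overlap is easier to reach for any gene. The share over all genes in these settings is not given here, so the counts are no result about Hox genes.

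**Figure D4:**
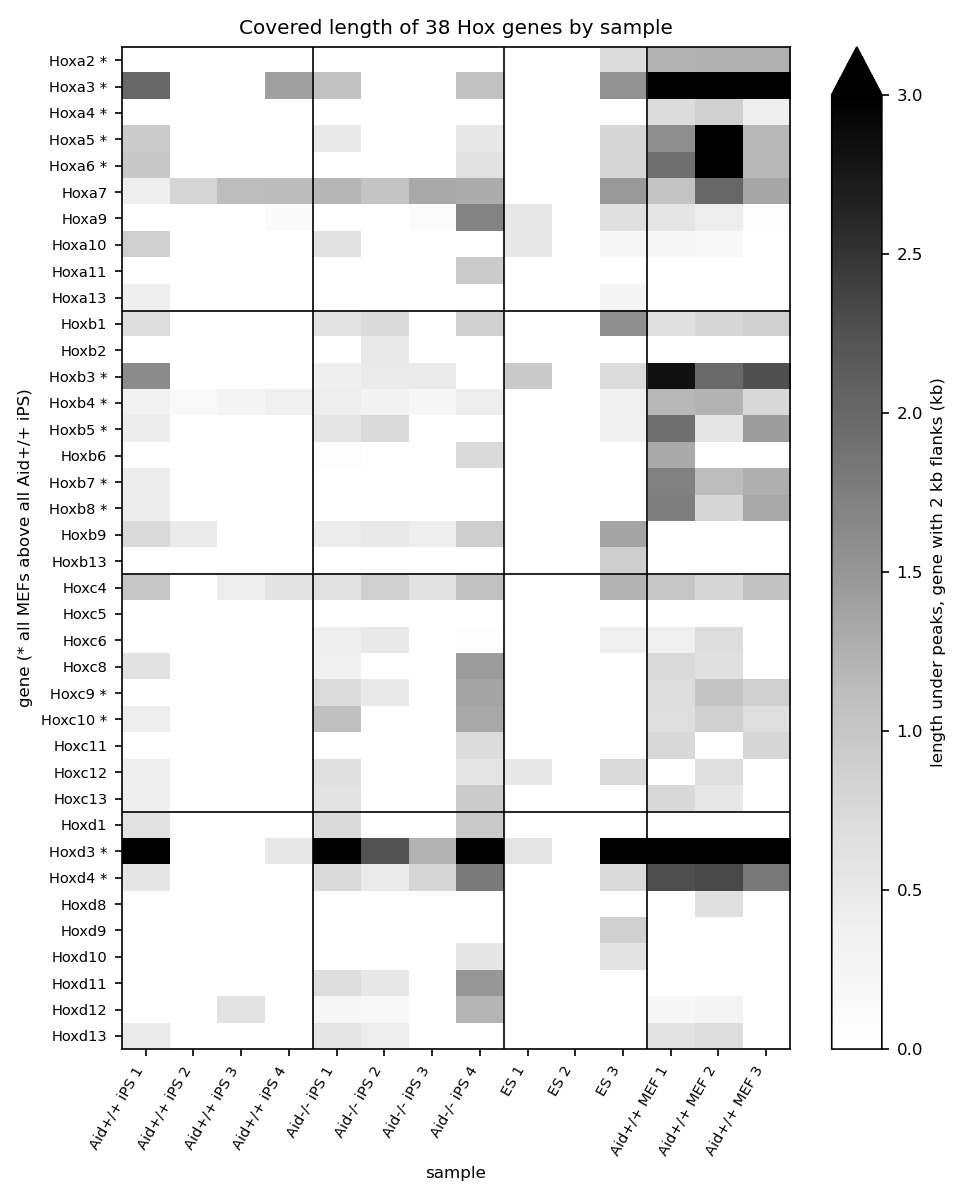
Covered length in kb (grey scale, black at 3 kb or more) of each of the 38 Hox genes with 2 kb flanks in each of the 14 samples, with vertical lines between groups and an asterisk at the 14 genes higher in all MEFs than in all Aid+/+ iPS clones. The MEF columns are dark from Hoxa2 to Hoxa6, from Hoxb3 to Hoxb8 and at Hoxd3 and Hoxd4, and pale over most posterior genes.

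Differentially methylated regions (DMRs) were then taken by the presence and absence rule of the study's methods: a stretch common to the peaks of all samples of a group, with no peak of the other group. Of 28 stretches of the Hox windows common to the MEFs, 16 were DMRs against Aid+/+ iPS clones, compared with 6.48% of such stretches over the genome. Of 5 stretches common to the Aid+/+ iPS clones, 2 had no MEF peak (HoxC-7 and HoxC-8), compared with 28.0% over the genome. Of the 16 MEF DMRs, 391 to 1102 bp long, 7 lay in HoxA, 3 in HoxB, 3 in HoxC and 3 in HoxD.

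None of these 16 DMRs held a peak of an ES line, and 11 were also free of peaks of every Aid-/- clone. The other 5 held a peak of Aid-/- iPS 4, and HoxC-11 also of Aid-/- iPS 1. The number rose to 25 when Aid+/+ iPS 1 was left out and fell to 10 at the stricter peak p-value. Between genotypes, 0 of 5 stretches of the Aid+/+ clones (0.412% over the genome) and 0 of 10 stretches of the Aid-/- clones (0.106%) were DMRs. ES lines shared no stretch in the windows at all (0.181% of their stretches were DMRs over the genome), and 0 of the 5 stretches of Aid+/+ iPS clones lacked ES peaks altogether (2.03%).

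The MEF regions varied greatly in tag number. HoxD-17 (chr2:74584204-74585749), which covers exon and UTR sequence of Hoxd3, held 443, 341 and 341 tags in the MEFs. It held 21, 0, 0 and 0 tags in Aid+/+ iPS 1 to 4, 36, 0, 0 and 36 in Aid-/- iPS 1 to 4, and 0, 0 and 18 in ES 1 to 3. The next highest count in the windows was 177 tags, in MEF 2 at HoxA-12, and a count of 0 here means that no peak was called, not that no tag was present.

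HoxD-16, in a Hoxd3 intron, held 140, 111 and 140 tags in the MEFs and at most 25 elsewhere. HoxB-30, over exon and UTR sequence of Hoxb3, held 161, 121 and 143 tags in the MEFs and at most 26 elsewhere. Both regions were thus marked in some other samples, but at a much lower level.

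The first 5 regions by least significance, among those with a peak in all samples of a group and none of another, were HoxB-27, HoxD-13, HoxC-11, HoxB-14 and HoxC-20. HoxB-27 (chr11:96187067-96187854, Hoxb3 intron) held 94, 82 and 44 tags in the MEFs and 16 in Aid+/+ iPS 1 alone. HoxD-13 (chr2:74564973-74565910, over the start of Hoxd4) held 75, 81 and 77 tags in the MEFs and 19 in Aid-/- iPS 4 alone. HoxC-11 (chr15:102796903-102798444, over the start and exon of Hoxc10) held 41, 47 and 35 tags in the MEFs and 35 and 31 in Aid-/- iPS 1 and 4. Per M filtered tags these HoxC-11 values were 2.09, 2.68 and 1.92 in the MEFs and 3.28 and 2.71 in Aid-/- iPS 1 and 4, so that both clones lay above the MEFs. All 3 regions thus had peaks in every MEF, and outside MEFs only in iPS clones of run A.

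HoxB-14 (chr11:96140626-96141383, between Hoxb9 and Hoxb8 and 1.84 kb upstream of Hoxb8) held 71, 54 and 39 tags in the MEFs and no peak in any of the other samples. It was 1 of 10 regions with peaks in all MEFs and in no other sample, of which 6 lay in HoxA, 3 in HoxB and 1 in HoxC. HoxA-3 (chr6:52114909-52116223, over the start, exon and UTR of Hoxa2) held the most tags among these, at 142, 78 and 72. The share of such MEF-only regions over the genome is not given here, so the 10 are no result about Hox clusters.

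A smaller set ran the other way. HoxC-20 (chr15:102856392-102857255, Hoxc4 intron) had no MEF peak, and held 22, 0, 18 and 29 tags in Aid+/+ iPS 1 to 4, 26, 25, 19 and 24 in Aid-/- iPS 1 to 4, and 59 in ES 3. Hoxc4 also held a MEF DMR at HoxC-23, with 33, 28 and 22 tags in the MEFs and no peak in any other sample. Hoxc4 with its flanks had 1.0, 0.769 and 1.072 kb covered in the MEFs and 1.004, 0, 0.428 and 0.577 kb in Aid+/+ iPS 1 to 4. HoxC-8 (chr15:102779744-102781366, 3.49 kb upstream of Hoxc11) held 54, 17, 14 and 20 tags in Aid+/+ iPS 1 to 4, 21, 24, 19 and 52 in Aid-/- iPS 1 to 4 and 122 in ES 3, and none in MEFs. In all, 6 regions had peaks in at least 6 of the 8 iPS clones and in no MEF. Each of these 6 also had a peak in ES 3, the C57BL6 line, and none in ES 1 or ES 2, the lines of 129 strains. ES 1 and ES 2 had few peaks in the windows at all, 7 and 2 against 33 in ES 3. Over the genome they had 58916 and 33694 peaks against 106385. The part of strain was not tested. The share over the genome of regions with this iPS and ES pattern is not given here. The 6 are thus no result about Hox clusters.

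Peaks in all 8 iPS clones were present at 4 regions, HoxA-14, HoxB-7, HoxB-25 and HoxC-8. HoxA-14 (chr6:52169717-52171257, over an annotated start of Hoxa7) held 124, 73, 117 and 80 tags in Aid+/+ iPS 1 to 4, 110, 87, 67 and 101 in Aid-/- iPS 1 to 4, 0, 0 and 174 in ES 1 to 3 and 40, 84 and 28 in the MEFs. Hoxa7 therefore held 2 regions of unlike pattern. HoxA-14 was under a peak in all iPS clones and MEFs. HoxA-13, over exon and UTR sequence 1.01 kb from another annotated start of Hoxa7, was under a peak in MEFs alone at 31, 40 and 23 tags. HoxB-7 and HoxB-25, between genes 22.0 kb upstream of Hoxb9 and 1.25 kb upstream of Hoxb4, were likewise present in all MEFs.

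**Figure D5:**
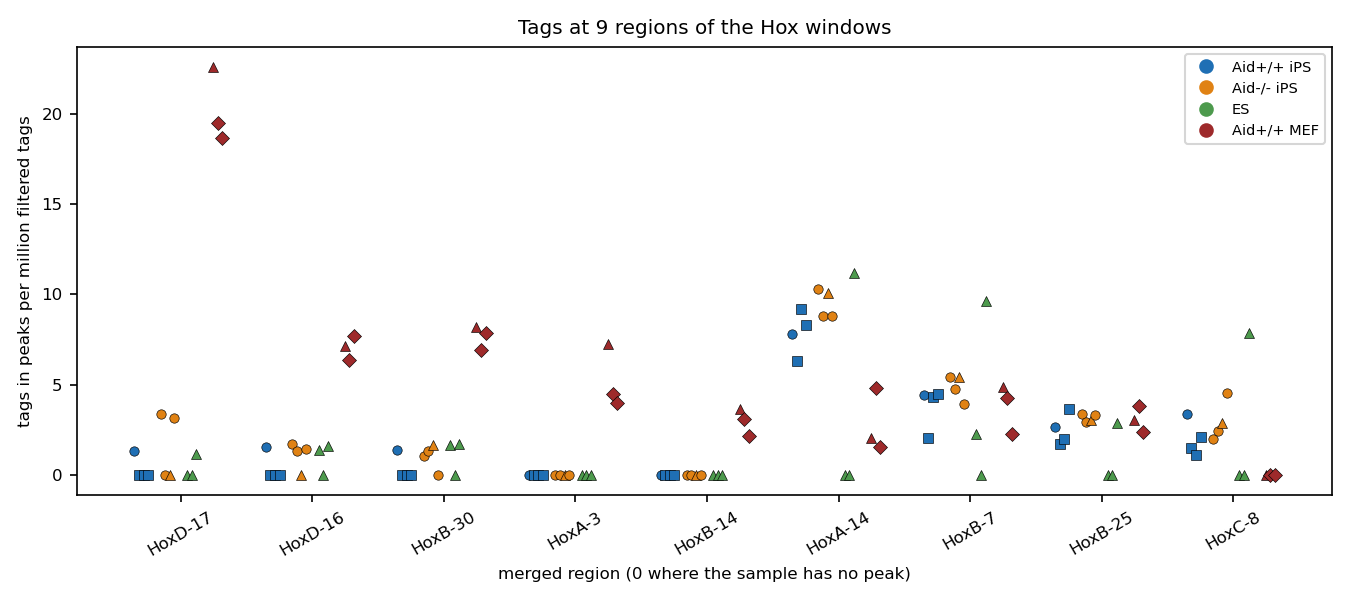
Tags in peaks per M filtered tags (y axis, linear) at 9 regions of the Hox windows, 1 point per sample coloured by group, with circles for run A, squares for run B, triangles for run C and diamonds for run D, and 0 where a sample has no peak. MEF points stand above all others at the 5 regions HoxD-17, HoxD-16, HoxB-30, HoxA-3 and HoxB-14, while at HoxA-14 and HoxC-8 most iPS points stand above the MEFs.

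Where all samples compared had a peak, tag counts were tested by the edgeR quasi-likelihood test with BH adjustment over all such regions of the genome. Against Aid+/+ iPS clones, MEFs were higher at HoxB-7 by 1.21 ± 0.30 on the log2 scale (SE, adjusted p = 0.00630) and at HoxB-25 by 1.55 ± 0.31 (SE, adjusted p = 0.00167), whereas HoxA-14 differed by -0.27 ± 0.30 (SE, adjusted p = 0.486). The 2 calls among 3 regions compare with 23.7% of regions called higher and 19.5% called lower over the genome. With libraries scaled to filtered tags, which moves the median of all regions from -0.05 to -1.30, HoxB-7 and HoxB-25 were at -0.01 and 0.31 and no longer called, and HoxA-14 was lower in MEFs at -1.50 (edgeR adjusted p = 0.000194). With limma on fold enrichment HoxB-7 and HoxB-25 were at 0.35 and 0.15 and not called either, and HoxA-14 was lower in MEFs at -1.22 (limma adjusted p = 0.00233).

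Between genotypes the 4 regions with peaks in all 8 iPS clones differed by 0.33 to 0.58 on the log2 scale, higher in Aid-/- clones, with an edgeR adjusted p of 1 for each. The largest of these, at HoxC-8, moved to between 0.18 (without Aid-/- iPS 4) and 1.15 (without Aid+/+ iPS 1, edgeR adjusted p = 0.235) when single clones were left out. With all clones included, none of the 4 was called by edgeR or DESeq2 or had an unadjusted p under 0.05 in either. There limma on fold enrichment gave 1 such p, 0.0320 at HoxA-14, with an adjusted p of 1. Without Aid+/+ iPS 1, edgeR gave unadjusted p-values of 0.00493 at HoxC-8, 0.03995 at HoxA-14 and 0.0478 at HoxB-7. Without Aid-/- iPS 3, edgeR gave an unadjusted p of 0.0406 at HoxC-8. No region was called in either setting. Over the genome edgeR called 0.0% of regions higher and 0.00196% lower. For ES lines no Hox region could be tested, since none had peaks in all ES lines and all Aid+/+ iPS clones.

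Genes that regulate or accompany Hox genes were counted in the same way. Of 43 such genes (Polycomb and trithorax proteins, the Pbx, Meis and Pknox cofactors, ParaHox and Evx genes, and genes of retinoic acid signalling), 39 had a peak in a sample. In MEFs against Aid+/+ iPS clones 3 were higher, Cbx8 and Pbx2 among them. The 9 lower genes were Aldh1a2, Cyp26a1, Ezh1, Meis2, Meis3, Pcgf2, Phc2, Pknox2 and Rarb. Cbx8, a chromodomain subunit of Polycomb complexes, had 1.14 ± 0.0700 kb covered in MEFs (SD, n = 3) and 0.145 ± 0.291 kb in Aid+/+ iPS clones (SD, n = 4). Rarb, a retinoic acid receptor, had 3.53 ± 0.449 and 6.85 ± 0.636 kb. The 3 higher and 9 lower regulators, of 39 with a peak, compare with 5.1% and 28.4% of all genes tested. Neither number is thus a result about the list. Ezh1 and Meis3 were lower in ES lines than in Aid+/+ iPS clones, against 3.6% of all genes tested. Their number is likewise no result about the list, and no regulator was called between genotypes.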

How the data were processed

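MBD-seq libraries of 14 mouse samples were sequenced and processed by the authors. The submitters' processing notes name CASAVA 1.8.1, BWA 0.5.9rc1 and MACS 1.4.1, and the file headers give MACS 1.4.0rc2 for 5 samples. Per the file headers, peaks were called in each sample on its own, without a control, at a p-value of 1e-05 and with at most 2 tags kept per position. In the deposited lists a peak has a count of tags, a ratio (fold enrichment over the local background), and a score (the negative log10 of its p-value, multiplied by 10).

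Coordinates are 1-based on NCBI build 37, and genes, exons and sequence come from GENCODE vM1 and the genome of that build. The members, gene lists and tests were chosen with earlier results of these data known. Samples were grouped by their titles, and replicate numbers pair no samples. Covered length, peak number and tile shares were compared by exact two-sided permutation tests over samples, with BH adjustment over 15 tests for each measure (6 for tiles). The smallest possible p is 0.0286 for 4 against 4 or 4 against 3 samples and 0.1 for 3 against 3. A sample without a peak in a cluster has no log2 value there and was dropped from that test. A gene was called where the groups did not overlap, and peaks overlapping by at least 1 bp counted as shared. Tag counts of merged regions with a peak in every sample compared were tested with edgeR 4.0.16 (TMM, R 4.3.3) at an adjusted p of 0.05, and alternatives used limma 3.58.1 and DESeq2 1.42.0. An adjusted p that DESeq2 left empty was kept empty. The interval code, the exact permutation test, the BH adjustment and the edgeR test were checked on simulated data, and limma and DESeq2 were not. Named in full were members with a DMR, a call, or a region called by edgeR, members without a peak, and the first 5 regions with a peak in all samples of a group and none of another, ranked by least score. No region had a peak in all 14 samples. The split of iPS clones by processing run was added after the data were seen. A few items are not reported here.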

Additional observations from a re-analysis of the deposited data

Results flagged for a closer look

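Within groups of 4, a sample standing far from the other samples was looked for in 34 groups of values, and 7 were found. Chance flags about 1 in 20 groups. Aid+/+ iPS 1 accounted for 6 of them. It had 38 peaks in the Hox windows (8 to 10 in the other Aid+/+ clones), 20.8 kb covered (5.25 to 7.48 kb), a covered share relative to the genome of 1.10 on the log2 scale (-1.22 to -1.09), 7.26 kb covered in HoxB (2.33 to 3.07 kb), 4.13 kb covered in HoxD (0 to 0.581 kb) and 14.8% of the length of CpG-dense Hox tiles under peaks (0.318 to 0.860%). It is the only Aid+/+ clone of run A, and these 6 values overlap in what they measure. Aid+/+ iPS 2 had 2.06 tags per M (mega) filtered tags at HoxB-7 (4.31 to 4.46 in the other Aid+/+ clones).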

How the results depend on the processing

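Of 497 recomputed values over 43 results, 427 were rated as unchanged. For differences this means the same direction and side of the threshold of 0.05, on the unadjusted p in permutation tests and the adjusted p for tag counts. With a sample left out of 4 against 3, no exact permutation p can fall under 0.05. A difference not under it before could there change only in direction. The 427 is thus no measure of how stable the results are. For counts it means a value equal or close to the main count. For MEFs against Aid+/+ iPS clones, keeping peaks at a p-value of at most 1e-10 gave 15.2 kb, 3.18 on the log2 scale, 18.8 peaks and 7.60 points of CpG-dense tiles, and the same number of peaks per sample gave 19.1 kb, 4.11 and 9.56 points (exact permutation p = 0.0286 for each). Their DMRs numbered 10 (MEFs) and 0 (iPS clones) at that stricter p-value, and 16 to 25 and 2 to 3 with single samples left out. The tag count calls at HoxB-7 and HoxB-25 were lost with filtered tags as library size and with limma on fold enrichment, and each gave 1 other call, HoxA-14 lower in MEFs. Within run A, an alternative chosen after seeing the data and without a test, Aid-/- clones against the Aid+/+ clone gave -0.485 kb, -0.27 on the log2 scale, -7.0 peaks and -2.39 points, each opposite in direction to the comparison of all clones.

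With the same number of peaks, the CpG-dense difference was 0.0 points for genotype and for ES lines. The ES difference in covered length turned to -0.179 kb without flanks and -0.0676 kb per M filtered tags, that relative to the genome to 0.41 with the same number of peaks and 0.46 without the Hoxb13 to Hoxb9 interval (where ES 2 has no value), and that in peak number to 1.17 at the stricter p-value. Leaving out single samples gave ES differences of -7.37 to 4.40 kb, -0.87 to 0.43, -11.75 to 5.0 peaks and -4.06 to 0.77 points, 0 to 2 genes higher (2 without ES 2), 0 to 2 lower and 0 to 4 iPS DMRs (2 and 4 without ES 3), and between genotypes 0 to 3 genes higher and 0 to 2 Aid-/- DMRs (2 without Aid+/+ iPS 1 or Aid-/- iPS 3). Singly, ES covered length was -1.50, -1.26 and -0.755 kb without Aid+/+ iPS 2, 3 and 4 and -7.37 kb without ES 3. At HoxB-25 and HoxA-14 the genotype difference turned to -0.18 and -0.45 with limma, and at HoxA-14 to -0.39 with a length offset. For MEFs, HoxB-7 turned to -0.014 with filtered tags, and HoxA-14 to 0.0703 without MEF 3 but was called lower without MEF 2 (-0.81, edgeR adjusted p = 0.0429). For the counts of genes and DMRs with samples left out, the shares over the genome are not given here, so these counts are no result about Hox genes. The causes were not tested.

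No paired analysis was possible because replicate numbers only name samples. With clone series as a block, no genotype call changed. Peak lists hold no value where no peak was called, so low signal is not detectable, and the Aid+/+ clones differ from MEFs and ES lines in processing run.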
